A study of Arabidopsis thaliana with 8 samples.

Results

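The WRKY transcription factors of Arabidopsis thaliana were followed in whole seedlings that lack TT8, a bHLH factor best known for switching on flavonoid genes with MYB and WD40 partners. Genes were taken as members when the gene table gave them a WRKY number as symbol or synonym, which found 72 genes. WRKY44 (TTG2), a trichome and seed coat factor, was left out, and 71 members remained of 25433 genes named on the array. Probes represented 69 of them, and 53 members could be tested among 19225 tested genes. To be tested, a member needed a brightest probe that passed the scanner's test for signal well above background in 1 line or both, on 4 of 4 arrays.

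WRKY proteins carry a DNA-binding domain of a conserved peptide followed by a zinc finger, and they bind W-box elements in promoters. Group I typically has a pair of these domains, group II has 1 domain and is split into subgroups IIa to IIe, and group III has 1 domain with another zinc finger type. Many members are induced by microbial patterns, wounding or salicylic acid, and they act as activators or repressors of defence genes, often on each other's promoters. Others act in senescence, nutrient starvation, seed development or drought. The assignment to groups followed the usual classification of the family, and the domains of single members were not counted here. Apart were kept 3 members whose WRKY domain is fused to an intracellular immune receptor (NLR).

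The wild type was the Wassilewskija accession (Ws), and the mutant was tt8-3, a loss-of-function line in the same background. Seedlings of both lines were 6 days old and had grown on sucrose-containing medium under long days, with no further treatment given in the labels. Each line had 4 arrays, with replicates 1 and 2 on slide 1 and replicates 3 and 4 on slide 2. The design text gives each line 2 biological replicates with technical repeats, and it can be read with the repeats either within a slide or across the slides. The main comparison took the first reading: arrays that shared line and slide were averaged, and 2 slide averages per line were compared. Under the second reading the 2 slide averages would be technical repeats. Whether seedlings were pooled is not given in the sources used here.

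TT8 itself checked the labels. Levels are log2 signals with the 75th percentile of each array set to 0. For TT8 the wild-type level was 4.28 ± 0.065, and the mutant level was -6.41 ± 0.86 (SD, n = 2 slide averages). It was not well above background on any tt8-3 array and was at least 1521-fold lower there (limma, adjusted p = 0.0018). Where its probe lies relative to the lesion was not analysed here. The 75th percentile of the processed signal lay between 547 and 1113 over the 8 arrays, and 69.0% to 77.2% of probes were well above background. Wild-type samples took the earlier places on both slides, and mutant samples the later, so position and genotype cannot be told apart.

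The 4 wild-type arrays stood apart in pairs that did not follow the slides. Replicates 1 and 3, at the first wild-type position of each slide, resembled each other, and so did replicates 2 and 4. Over the WRKY members, wild-type arrays of the same slide differed by a median of 0.43 on the log2 scale, and wild-type arrays at the same position by 0.17. In tt8-3 the same medians were 0.18 and 0.14. Over all tested genes they were 0.32 and 0.15 in wild type, and 0.13 and 0.17 in tt8-3. Over all genes, tt8-3 arrays were thus closer within a slide than at the same position, unlike the wild type. Because of the wild-type pairs, counts for the family and groups I to III are also given with arrays averaged by position. That averaging joins replicates 1 with 3 and 2 with 4 and follows the second reading. The same counts are given against either wild-type pair alone. Unless said otherwise, a member "rose" or "fell" where limma's adjusted p over all tested genes was under 0.05 with slide averages.

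More WRKY genes were higher than lower in tt8-3. Of the 53 tested members, 20 rose (37.7%) and 2 fell (3.77%), while 15.7% of all tested genes rose and 11.0% fell. The 20 that rose were WRKY33, WRKY26, WRKY32 and WRKY2 of group I, WRKY40, WRKY18 and WRKY60 of IIa, WRKY47 and WRKY9 of IIb, WRKY48, WRKY57, WRKY49, WRKY75 and WRKY71 of IIc, WRKY54, WRKY38, WRKY53, WRKY46 and WRKY30 of group III, and the fused WRKY52. The 2 that fell were WRKY6 of IIb and WRKY17 of IId. Of the 20, WRKY38, WRKY54 and WRKY71 were tested only through tt8-3. Over genes well above background on all 8 arrays, 17 of 46 members rose and 3 fell, beside 2623 and 2117 of 18275 genes. The median log2 change over the tested members was 0.28, against 0.010 over all tested genes, and 41 members had a positive change. All 4 tt8-3 arrays lay above all 4 wild-type arrays in 19 members (35.8%, with 19.6% over all genes), and below them in 2 members, WRKY17 and WRKY16 (3.77%, with 13.5% over all genes).

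With arrays averaged by position, WRKY54 was the 1 member that rose (1.89%, with 2.73% over all genes) and none fell (0.380% over all genes). WRKY54 and WRKY38 were well above background on no wild-type array, so both were tested only through tt8-3 and their wild-type values are bounds. WRKY71, not well above background on every wild-type array, was also tested only through tt8-3. Calls of these members, here and in all fits below, are no separate support for a rise. At an unadjusted p under 0.05 in that limma fit, 14 members were higher (26.4%, with 14.9% over all genes) and 1 lower (1.89%, with 8.46% over all genes). With slide averages and slide as a block, 30 members rose and 5 fell, where 33.8% and 30.8% of all genes did. Of the 22 calls, 6 held in all 12 fits that left out 1 array or 1 slide average (27.3%, beside 1233 of 5137 calls over all genes): WRKY18, WRKY40, WRKY60, WRKY38, WRKY53 and WRKY54. Leaving out wild-type replicate 1 ended 16 calls, wild-type replicate 3 ended 12, wild-type replicate 4 ended 7 and wild-type replicate 2 ended 6. Leaving out a wild-type slide average ended 11 calls (slide 1) or 13 calls (slide 2), and leaving out a tt8-3 slide average ended 8 calls on either slide. Without tt8-3 replicate 1, 6 calls ended, and without replicate 2, 3 or 4 of tt8-3, 4 calls ended each. With normexp background correction 10 calls ended, those of WRKY2, WRKY9, WRKY17, WRKY30, WRKY38, WRKY49, WRKY54, WRKY57, WRKY71 and WRKY75.

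**Figure D1:**
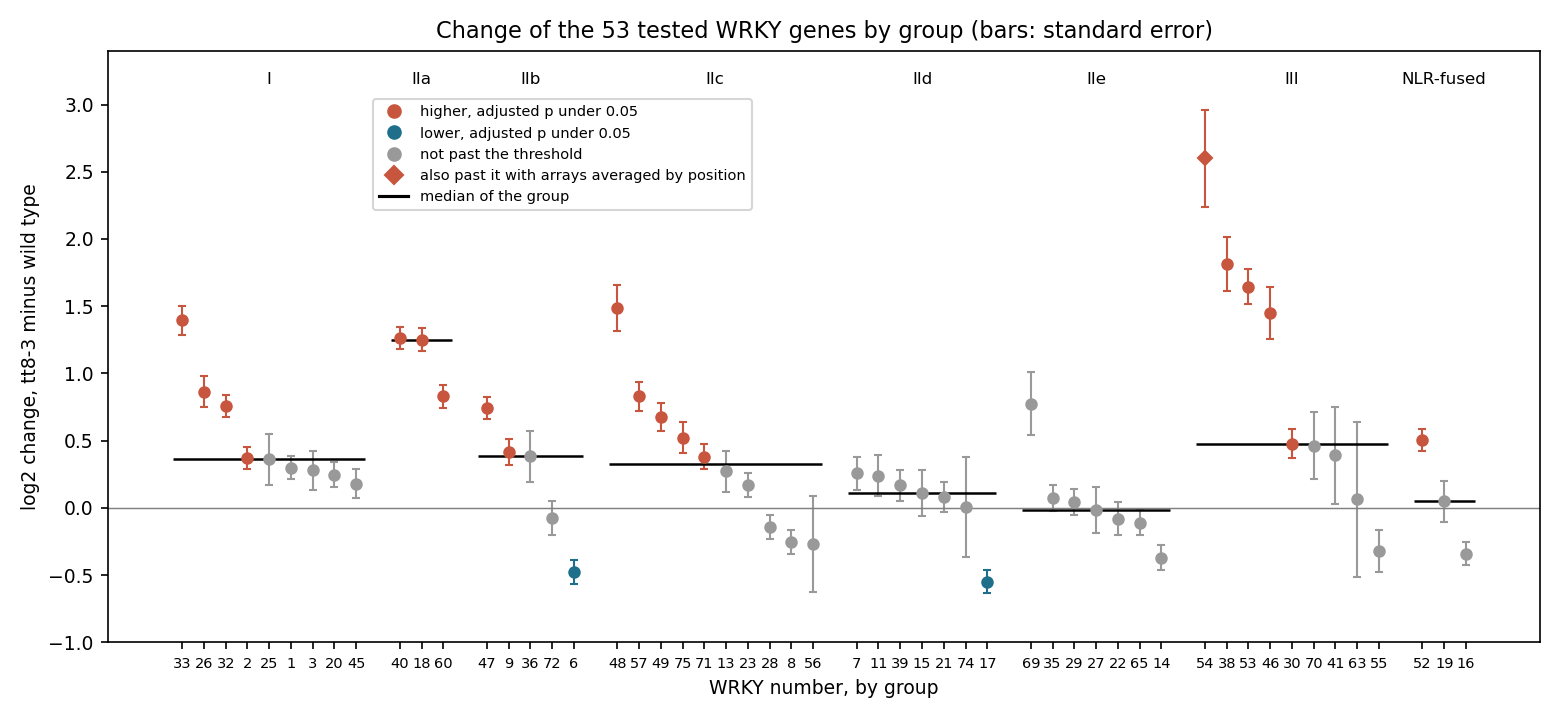
Log2 change (tt8-3 minus wild type, slide averages) of the 53 tested WRKY genes, ordered by group, with standard errors as bars and group medians as black lines. All 3 IIa members and 5 of 9 group III members rose, and IIe had none past the threshold. The diamond marks WRKY54, which also passed with arrays averaged by position but was tested through tt8-3 only. WRKY38 and WRKY71 were also tested through tt8-3 only.

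Group I members all had positive changes, and 4 of the 9 tested rose (44.4%). None fell, also at an unadjusted p under 0.05 by limma, which 18.8% of all genes met for a fall. The group's median log2 change was 0.36. WRKY33, which is needed for resistance to necrotrophic fungi and for camalexin synthesis, showed the group's largest change.

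The level of WRKY33 was 0.10, 1.40, -0.059 and 1.35 on wild-type replicates 1 to 4. On tt8-3 replicates 1 to 4 it was 2.19, 2.18, 2.06 and 1.96. The tt8-3 arrays lay close together above all wild-type arrays, and wild-type replicates 1 and 3 were the low ones. The log2 change was 1.40 (SE 0.11, adjusted p = 0.0059), with an adjusted p of 0.18 when arrays were averaged by position. Without wild-type replicate 1 the change was 1.07 and the call was lost (adjusted p = 0.060).

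WRKY32, a group I factor known from photomorphogenesis, was at -1.70, -0.48, -1.52 and -0.67 in wild type. In tt8-3 its levels were -0.36, -0.34, -0.39 and -0.24. The lines did not overlap, but the gap between them was 0.086, with wild-type replicates 2 and 4 close to the mutant. WRKY32 rose by a log2 change of 0.76 (SE 0.083, adjusted p = 0.010; by position 0.30). Its call was lost without wild-type replicate 1 (0.45), without wild-type replicate 3 (0.54) and without either wild-type slide average (0.76 and 0.75).

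WRKY26, which acts with WRKY25 and WRKY33 under heat, rose by 0.86 (SE 0.11, adjusted p = 0.014), and its call was lost without wild-type replicate 1 or 3, without tt8-3 replicate 1 or without the wild-type average of slide 2. WRKY2, a factor of seed germination, rose by 0.37 (SE 0.084, adjusted p = 0.043), held in 1 of 12 leave-out fits. The other tested members did not pass: WRKY25 had a change of 0.36, WRKY1 of 0.30, WRKY3 of 0.28, WRKY20 of 0.25 and WRKY45, a regulator of phosphate uptake, of 0.18. WRKY20 was nevertheless higher on every tt8-3 array than on every wild-type array.

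Subgroup IIa was higher as a whole in tt8-3. It consists of WRKY18, WRKY40 and WRKY60, partly redundant factors that pair with each other, restrain basal defence and act in abscisic acid responses. All 3 rose (100%), with a median log2 change of 1.25, and all 4 tt8-3 arrays lay above all 4 wild-type arrays for each. Their calls held in all 12 leave-out fits, and none passed with arrays averaged by position.

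WRKY40 was at 1.38, 2.31, 1.45 and 2.34 on the wild-type arrays. On the tt8-3 arrays it was at 3.10, 3.17, 3.10 and 3.17. The mutant arrays were nearly equal, and wild-type replicates 2 and 4 stood between them and replicates 1 and 3. Its log2 change was 1.27 (SE 0.083, adjusted p = 0.0045; by position 0.12).

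For WRKY18 the wild-type levels were 1.72, 2.79, 1.79 and 2.63. The tt8-3 levels were 3.57, 3.45, 3.55 and 3.37. The pattern over the wild-type arrays was that of WRKY40, with replicates 1 and 3 low. WRKY18 rose by 1.25 (SE 0.085, adjusted p = 0.0048; by position 0.13). WRKY60, a target of its 2 partners, rose by 0.83 (SE 0.085, adjusted p = 0.0093; by position 0.099).

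Subgroup IIb moved in both directions, with 2 of 5 tested members up (40%) and 1 down (20%) around a median log2 change of 0.38. WRKY47 was at -2.36, -1.84, -2.40 and -1.78 in wild type. In tt8-3 it was at -1.34, -1.36, -1.26 and -1.44. All mutant arrays were above all wild-type arrays. WRKY47 rose by 0.75 (SE 0.082, adjusted p = 0.011; by position 0.17), and the call was lost without wild-type replicate 1 (0.61), without wild-type replicate 3 (0.59) or without either wild-type slide average (0.74 and 0.75). WRKY9 rose by 0.42 (SE 0.096, adjusted p = 0.045), with overlapping lines and the call held in 1 of 12 leave-out fits.

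WRKY6, a senescence factor that also represses the phosphate exporter gene PHO1, was the IIb member that fell. Wild-type levels were -0.64, 0.24, -0.54 and 0.35. The tt8-3 levels were -0.45, -0.83, -0.43 and -0.78. The lines overlapped: tt8-3 replicates 1 and 3 were above wild-type replicates 1 and 3, and all mutant arrays were below wild-type replicates 2 and 4. The log2 change was -0.48 (SE 0.090, adjusted p = 0.030; by position 0.45), and it held in 1 of 12 leave-out fits, that without tt8-3 replicate 3. Against wild-type replicates 1 and 3 alone the change was -0.033, and against replicates 2 and 4 alone it was -0.92. WRKY36 (0.38) and WRKY72 (-0.076) did not pass.

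In subgroup IIc, 5 of 10 tested members rose (50%), none fell, and 1 was lower at an unadjusted p under 0.05 by limma. Its median log2 change was 0.33. WRKY48, known as a repressor of basal resistance, was at -3.27, -2.03, -3.70 and -2.29 in wild type. In tt8-3 it was at -1.24, -1.16, -1.47 and -1.49. The mutant arrays were all higher, and wild-type replicates 1 and 3 were well below replicates 2 and 4. The log2 change was 1.49 (SE 0.17, adjusted p = 0.012; by position 0.16), and the call was lost without wild-type replicate 1 (1.17, adjusted p = 0.077).

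WRKY57, linked to drought tolerance and to jasmonate-induced leaf senescence, was at -4.30, -3.89, -4.32 and -4.26 in wild type and at -3.46, -3.29, -3.54 and -3.16 in tt8-3. The lines did not overlap, and only wild-type replicate 2 stood off the other wild-type arrays. WRKY57 rose by 0.83 (SE 0.11, adjusted p = 0.014; by position 0.098). The call was lost without wild-type replicate 1 or without the wild-type average of slide 2 (0.73 in each), and it was lost with normexp background correction (0.27, adjusted p = 0.28).

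The other IIc members that rose were WRKY49 (0.67, adjusted p = 0.019), WRKY75 (0.52, adjusted p = 0.040), which acts in phosphate starvation and root hair growth, and WRKY71 (0.38, adjusted p = 0.048), which acts in shoot branching. Without wild-type replicate 1 or 3, or without either wild-type slide average, WRKY49 lost its call, and with normexp its change was 0.10 (adjusted p = 0.66). WRKY75 held in 2 of 12 leave-out fits and WRKY71 in 1. Only 2 of the 4 wild-type arrays showed WRKY71 well above background, and its change turned to -0.15 without wild-type replicate 1 and to -0.12 without wild-type replicate 3. Not past the threshold were WRKY13 of stem wall formation (0.27), WRKY23 of auxin responses (0.17), WRKY28, a regulator of ICS1 (-0.14), WRKY8 (-0.25) and WRKY56 (-0.27).

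Subgroup IId, whose members bind calmodulin, had 7 tested members, of which none rose and 1 fell (14.3%). None was higher at an unadjusted p under 0.05 by limma, as 23.6% of all genes were, and the median log2 change was 0.11. WRKY17, which with WRKY11 restrains basal resistance, was at -0.42, -0.61, -0.34 and -0.63 in wild type and at -1.09, -0.97, -1.16 and -0.97 in tt8-3. All mutant arrays were lower than all wild-type arrays, and here wild-type replicates 1 and 3 were the high ones. The log2 change was -0.55 (SE 0.083, adjusted p = 0.019; by position 0.16). The call held in 6 of 12 leave-out fits and was lost without wild-type replicate 1 (-0.50), without wild-type replicate 3 (-0.48) and without any 1 of the 4 slide averages. With normexp background correction it was also lost (-0.43, adjusted p = 0.057). The changes of the other members were 0.26 for WRKY7, 0.24 for WRKY11, 0.17 for WRKY39, 0.11 for WRKY15, 0.080 for WRKY21 and 0.010 for WRKY74.

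Subgroup IIe had no member past the threshold among 7 tested, and 1 member was higher and 1 lower at an unadjusted p under 0.05 by limma. The median log2 change was -0.013. WRKY69 had the largest change (0.77, adjusted p = 0.080) and was higher on every tt8-3 array than on every wild-type array, and it passed without the tt8-3 average of slide 2. WRKY14 was at the other end (-0.37, adjusted p = 0.055) and passed without tt8-3 replicate 2. WRKY22 (-0.079) and WRKY29 (0.043), which act behind the flagellin MAP kinase cascade, and WRKY27 (-0.013), known from bacterial wilt, had changes near 0, as had WRKY35 (0.073) and WRKY65 (-0.11).

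WRKY53 of group III had the largest change among members well above background in both lines, and WRKY54 and WRKY38 of the same group were well above background in tt8-3 only. Of 9 tested members 5 rose (55.6%), none fell, also at an unadjusted p under 0.05 by limma, and the median log2 change was 0.48. WRKY38, WRKY54, WRKY41 and WRKY55 were tested only through tt8-3, because not all wild-type arrays were well above background. Over the 5 members well above background on all 8 arrays the median was also 0.48. WRKY53, a regulator of leaf senescence, was at -1.98, -1.24, -2.17 and -1.43 in wild type and at -0.14, 0.25, -0.30 and -0.034 in tt8-3. The gap between the lines was 0.93, larger than the difference within either line on a slide. WRKY53 rose by 1.64 (SE 0.13, adjusted p = 0.0061; by position 0.071), held in all 12 leave-out fits.

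WRKY38, a repressor of basal defence together with WRKY62, was at -8.02, -6.83, -7.30 and -6.56 in wild type, where no array was well above background. In tt8-3 it was at -5.56, -5.37, -5.30 and -5.22, well above background on all 4. The lines did not overlap, and the wild-type values are bounds only, so WRKY38 was at least 1.56-fold higher in tt8-3 (adjusted p = 0.011; by position 0.077). Such a bound sets the mutant mean against the array's dimmest signal that counts as well above background, or against the gene's own signal where that is higher. With normexp background correction the log2 change was 0.16 and the call was lost (adjusted p = 0.38).

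WRKY54, which with WRKY70 and WRKY46 acts in salicylic acid and brassinosteroid responses, was at -6.44, -6.93, -7.24 and -8.05 in wild type, again on no array well above background. Its tt8-3 levels were -4.69, -4.11, -4.79 and -4.67, well above background on all 4. Here wild-type replicates 1 and 2 were the high ones, so the wild-type pairs by position did not stand apart. WRKY54 was at least 2.71-fold higher in tt8-3 (adjusted p = 0.016; by position 0.025), and with normexp the log2 change was 0.38 and the call was lost (adjusted p = 0.23). WRKY55 is its direct neighbour with no annotated gene between them, and it had a log2 change of -0.32 (adjusted p = 0.20), with 2 of 4 wild-type arrays well above background.

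WRKY46 rose by 1.45 (SE 0.19, adjusted p = 0.015; by position 0.18), and lost its call without wild-type replicate 1 (1.08, adjusted p = 0.12). WRKY30 rose by 0.48 (SE 0.10, adjusted p = 0.040) with overlapping lines, held in 2 of 12 leave-out fits. With normexp the change of WRKY30 was 0.097 (adjusted p = 0.60). WRKY70, the partner of WRKY54, had a change of 0.46 that did not pass (adjusted p = 0.23). Nor did WRKY41 of seed dormancy (0.39), well above background on 1 wild-type array, or WRKY63 of abscisic acid responses (0.064).

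**Figure D2:**
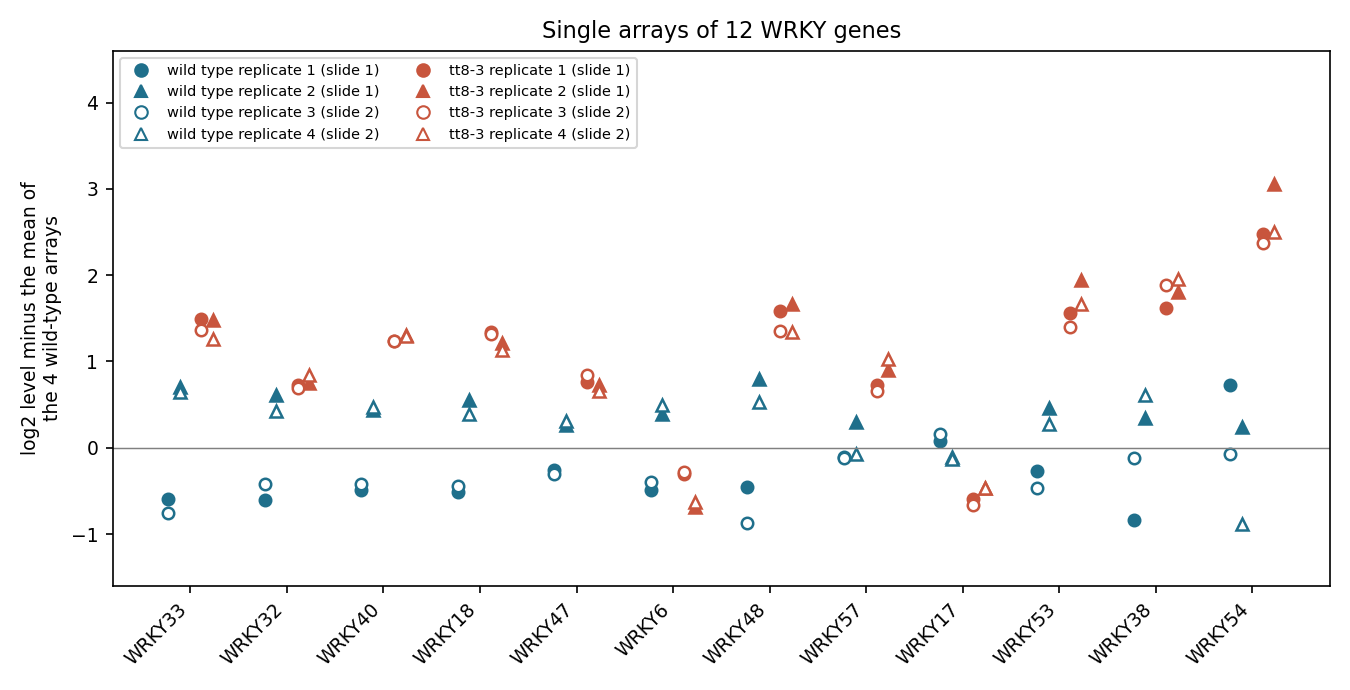
Levels of 12 WRKY genes on the 8 arrays, on the log2 scale relative to the gene's mean over the 4 wild-type arrays, with filled symbols for slide 1, open symbols for slide 2, circles for replicates 1 and 3 and triangles for replicates 2 and 4. Wild-type circles lie below wild-type triangles for WRKY33, WRKY32, WRKY40, WRKY18, WRKY47, WRKY6, WRKY48, WRKY57, WRKY53 and WRKY38, and the order is turned for WRKY17.

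The members fused to immune receptors did not move together. WRKY52 (RRS1), which pairs with RPS4 to detect bacterial and fungal pathogens, rose by 0.50 (SE 0.082, adjusted p = 0.021; by position 0.17). All its tt8-3 arrays were above all wild-type arrays, and the call held in 4 of 12 leave-out fits, those with 1 tt8-3 array left out. WRKY16 (TTR1) had a change of -0.34 (adjusted p = 0.052) with all tt8-3 arrays lower, but its other 3 probes gave 0.37, 0.15 and 0.033. WRKY19, which also carries a kinase domain, had a change of 0.048.

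Set side by side, groups I and III had larger median changes (0.36 and 0.48) than group II (0.17), whose subgroups ranged from 1.25 in IIa to -0.013 in IIe. The share that rose was 44.4% in group I, 31.2% in group II (10 of 32) and 55.6% in group III, and both members that fell belonged to group II (6.25%). These shares include WRKY38 and WRKY54 of group III and WRKY71 of group II, which were tested only through the mutant. With arrays averaged by position none of groups I and II passed. At an unadjusted p under 0.05 in that fit 2 of group I were higher, 7 of group II were higher and 1 lower, and 4 of group III were higher. The group III count again includes WRKY38 and WRKY54, so neither its share nor this count can rank group III above the others. The difference between groups was not tested, because members of a group are not replicates of a condition. The order of the medians was the same on slide 1 (0.37, 0.14 and 0.48 for groups I, II and III) and on slide 2 (0.35, 0.18 and 0.63). With normexp it turned, with 0.30 in group I, 0.066 in group II and 0.16 in group III, and against wild-type replicates 2 and 4 alone groups I and III were level.

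Levels in wild type varied by position in many members. In 22 of 53 members (41.5%), wild-type replicates 2 and 4 were above replicates 1 and 3 by over 0.5 on the log2 scale on both slides, where 10.5% of all genes were. No member was lower by that much on both slides, where 12.4% of all genes were. In tt8-3 the same counts were 1 higher and 1 lower (1.41% and 2.03% of all genes). The range over the 4 wild-type arrays had a median of 0.77 over the members, against 0.40 over the tt8-3 arrays, and it was the wider of the 2 in 40 of 53 members (75.5%, with 69.4% of all genes). For all tested genes these medians were 0.51 and 0.35.

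WRKY71 had the widest position difference in wild type, with replicate 2 above replicate 1 by 2.13 and replicate 4 above replicate 3 by 1.98. WRKY25 followed with 1.75 and 1.66, and WRKY55 with 1.67 and 1.25. Neither WRKY71 nor WRKY55 was well above background on every wild-type array, so the size of their differences is uncertain. WRKY38, counted above among the members with the difference, and WRKY54 were well above background on no wild-type array. WRKY33 differed by 1.296 and 1.41, and WRKY54 went the other way, by -0.49 and -0.80. In groups I and III 5 of 9 tested members each had the difference on both slides, and in group II 12 of 32. Within group II it was 6 of 10 in IIc and 1 of 7 in each of IId and IIe.

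**Figure D3:**
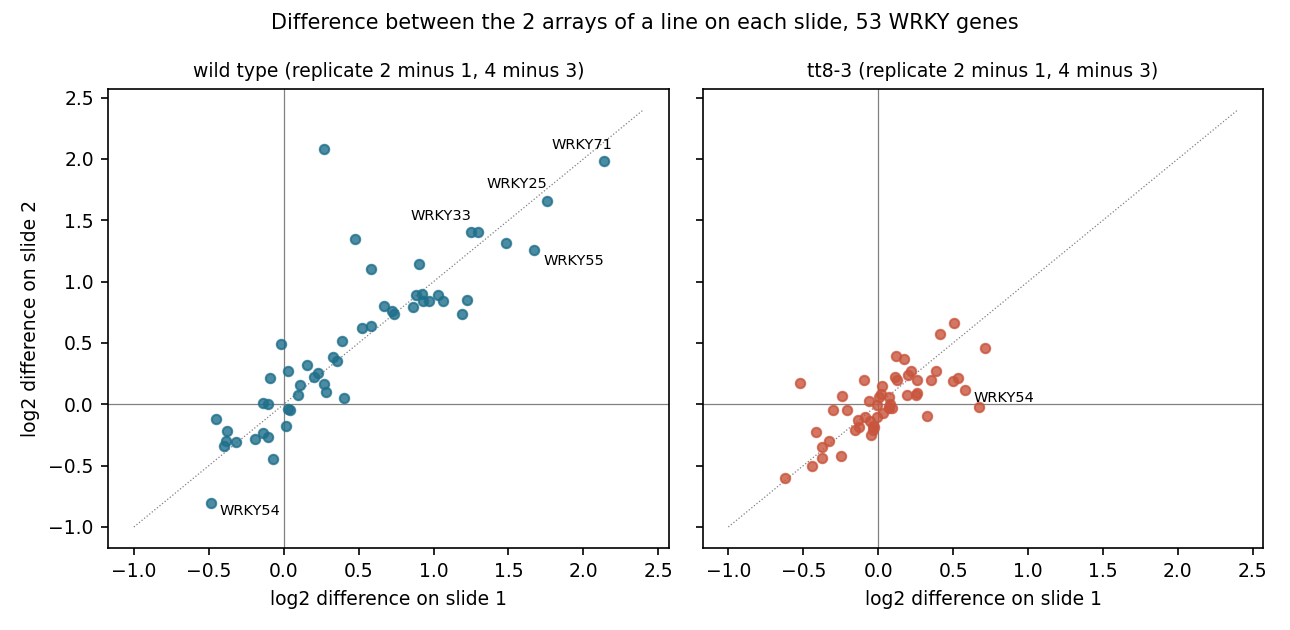
Difference between the 2 arrays of a line on slide 1 (x axis) and slide 2 (y axis), in log2 units, for the 53 tested WRKY genes in wild type (left) and tt8-3 (right), with the dotted line marking equal differences. In wild type 22 members lie beyond 0.5 on both axes, and in tt8-3 the points gather around 0.

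The change in tt8-3 depended on which wild-type arrays it was set against. Against replicates 1 and 3 alone, 23 members rose (43.4%, with 18.5% of all genes) and 2 fell, WRKY14 and WRKY17 (3.77%, with 15.2% of all genes), with a median change of 0.41. Against replicates 2 and 4 alone, 12 rose (22.6%, with 16.4% of all genes) and 7 fell (13.2%, with 11.7% of all genes), with a median change of 0.17. The 12 were WRKY33, WRKY18, WRKY40, WRKY60, WRKY47, WRKY9, WRKY48, WRKY57, WRKY38, WRKY53, WRKY54 and WRKY52. Of these, WRKY38 and WRKY54 were tested only through tt8-3, so their calls against either pair are no separate support for a rise. The 7 that fell were WRKY6, WRKY8, WRKY28, WRKY71, WRKY17, WRKY55 and WRKY16.

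Against the lower pair and the higher pair, in that order, the median was 0.55 and 0.24 in group I, 0.29 and 0.060 in group II, and 0.93 and 0.24 in group III. Subgroup IIa kept all 3 members past the threshold against either pair, with medians of 1.72 and 0.78. WRKY33 changed by 2.07 and 0.72, WRKY48 by 2.15 and 0.82, WRKY53 by 2.01 and 1.28, and WRKY46 by 2.15 and 0.75, the last not past the threshold (adjusted p = 0.066). WRKY25 had a change of 1.21 against the lower pair (adjusted p = 0.012) and of -0.49 against the higher pair (adjusted p = 0.14). WRKY71 changed by 1.41 and by -0.65, past the threshold in opposite directions, and it was not well above background on every wild-type array.

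**Figure D4:**
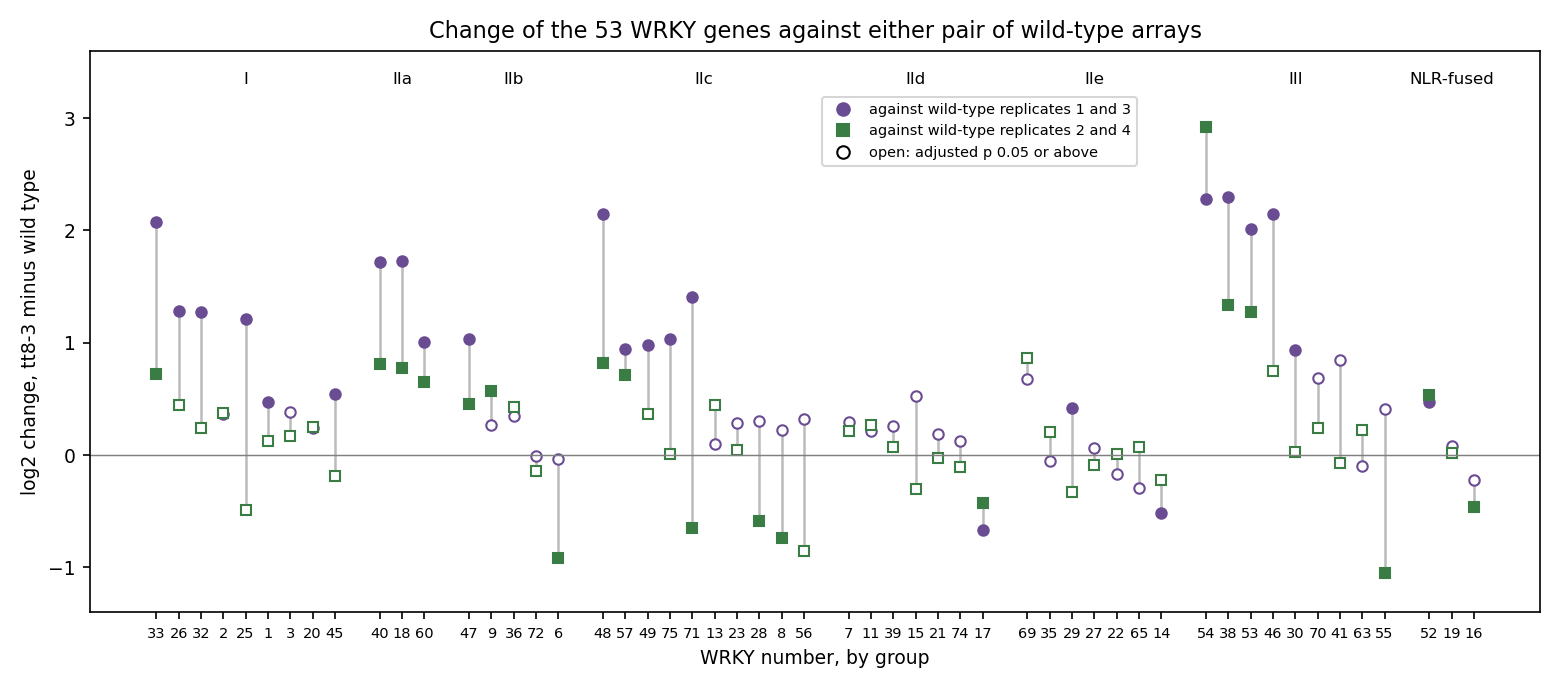
Log2 change of the 53 tested WRKY genes in tt8-3 against wild-type replicates 1 and 3 (circles) and against wild-type replicates 2 and 4 (squares), by group, with open symbols where the adjusted p was 0.05 or above. The IIa symbols are filled and above 0 for both pairs, and those of WRKY71 lie on opposite sides of 0.

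The remaining 18 members were not tested. No probe stood for WRKY4 and WRKY61. Well above background on 0 of the 8 arrays were WRKY10 of seed size, WRKY34 of pollen, WRKY42, WRKY24, WRKY43, WRKY68, and WRKY64, WRKY66 and WRKY67 of group III. WRKY58 was well above background on 1 array, WRKY51 and WRKY62 on 2, WRKY12 and WRKY50 on 3, and WRKY31 and WRKY59 on 5. The arrays of WRKY51, WRKY62, WRKY12 and WRKY58 that passed were all of tt8-3. WRKY31 passed on 3 arrays of the wild type and 2 of tt8-3, WRKY50 on 2 and 1, and WRKY59 on 2 and 3. Of all probes, 69.0% to 71.7% passed per wild-type array and 70.9% to 77.2% per tt8-3 array. The share of all genes that passed in tt8-3 only is not given here.

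Where several probes of a member were detected, their changes had the same sign except in WRKY15, WRKY16, WRKY39 and WRKY72, none of which was past the threshold. Probes of WRKY40 gave 1.27 and 1.34, of WRKY53 1.64 and 1.70, and of WRKY18 0.91 and 1.25. WRKY57 had the widest spread among members that rose, from 0.29 to 0.83.

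Kinases that act upstream of WRKY factors were also measured. Of 17 tested, 3 rose (17.6%, with 15.7% of all genes) and none fell (11.0% of all genes), with a median change of 0.17. At an unadjusted p under 0.05 by limma 1 was lower, as 18.8% of all genes were. MPK11 rose by 0.73, MKK4, a kinase of the flagellin cascade, by 0.63 and the calcium-dependent kinase CPK4 by 0.40. None passed with arrays averaged by position, where 1 was higher at an unadjusted p under 0.05 (14.9% of all genes). MPK11 and CPK4 had changes of -0.041 and 0.014 against wild-type replicates 2 and 4 alone, and 1.50 and 0.79 against replicates 1 and 3.

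VQ proteins bind the WRKY domain and modulate its activity. Of 41 VQ names 9 matched the gene table and 8 genes were tested. Of these 8, 2 rose (25.0%, with 15.7% of all genes) and none fell (11.0% of all genes). At an unadjusted p under 0.05 by limma 1 was lower, as 18.8% of all genes were. SIB1, a partner of WRKY33, rose by 0.85 (adjusted p = 0.030; by position 0.30), and CAMBP25 rose by 0.59 (adjusted p = 0.020; by position 0.23).

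Pattern receptors and their partners, whose signalling induces WRKY genes, were tested for 12 genes. Of these, 4 rose (33.3%, with 15.7% of all genes) and none fell (11.0% of all genes), with a median of 0.30. None was lower at an unadjusted p under 0.05 by limma either, as 18.8% of all genes were. The chitin receptor LYK5 rose by 1.18 (adjusted p = 0.0053) and the co-receptor BKK1 by 1.05 (adjusted p = 0.0074). The adaptor kinase SOBIR1 rose by 0.95 (adjusted p = 0.016) and the oxidase RBOHD by 0.42 (adjusted p = 0.0499). Against wild-type replicates 2 and 4 alone their changes were 1.02, 0.56, 0.73 and 0.19. The RBOHD call was lost whenever 1 array was left out, and that of LYK5 never was. None of the 12 passed with arrays averaged by position, with 5 higher at an unadjusted p under 0.05 (14.9% of all genes). On all 4 tt8-3 arrays 6 of the 12 were above all wild-type arrays, as were 19.6% of all genes.

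Genes reported elsewhere as bound or controlled by WRKY factors changed in both directions. Of 20 tested, 6 rose and 7 fell, where 15.7% and 11.0% of all genes did, with a median of 0.23. With arrays averaged by position 1 rose and 1 fell, where 2.73% and 0.380% of all genes did. JAZ8, a jasmonate repressor gene bound by WRKY40, rose by 1.55 (adjusted p = 0.0041; by position 0.033). SARD1, an activator of salicylic acid synthesis, rose by 1.104 (adjusted p = 0.0055; by position 0.18), and EDS1, a lipase-like immune regulator, by 0.84 (adjusted p = 0.010; by position 0.12). CYP71A12, an enzyme towards camalexin, fell, with a log2 change of -1.07 (adjusted p = 0.0078; by position 0.325). Its change was -0.25 against wild-type replicates 1 and 3 and -1.90 against replicates 2 and 4. ICS1, the salicylic acid synthesis gene, was named after its values were seen, because it also fell with arrays averaged by position: its change was -1.31 (adjusted p = 0.015; by position 0.048).

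Organ markers also differed between the lines, and their part in the WRKY changes was not tested. In whole seedlings fewer cells of a type and less RNA per cell cannot be told apart. Over all tested genes, 15.7% rose and 11.0% fell. With arrays averaged by position NRT2.1 was the 1 marker named here that passed, and it fell (adjusted p = 0.027). Of 11 tested root genes 2 rose, PYK10 (0.71) and NAXT1 (0.55), and the nitrate transporter NRT2.1 fell (-2.05), with a summed linear level of 24.5 to 49.9 on wild-type arrays and 45.2 to 52.8 on tt8-3 arrays, in units of the 75th percentile. Of 10 photosynthetic genes 2 fell, LHCB2.1 (-2.41) and GAPB (-0.47), none rose, and the sum was 1442 to 3165 in wild type and 1290 to 2295 in tt8-3. The median change of the photosynthetic genes was -0.43, and it was -0.71 against wild-type replicates 1 and 3 and -0.15 against replicates 2 and 4. Of 9 tested senescence genes 2 fell, SAG29 (-2.64) and SAG13 (-0.74), none rose, and SAG12 was not detected. Their sum was 25.5 to 45.5 in wild type and 24.6 to 39.7 in tt8-3. Of 4 tested seed genes 3 rose, CRA1 (at least 2.51-fold), OLEO2 (at least 4.39-fold) and EM1 (1.80 on the log2 scale). Their list had sums of 0.42 to 0.61 in wild type and 0.38 to 1.50 in tt8-3. CRA1 and OLEO2 were well above background on no wild-type array and EM1 on 2, so all 3 were tested only through tt8-3. EM6, well above background on all arrays of both lines, did not pass (0.15, adjusted p = 0.29).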

How the data were processed

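Total RNA of whole seedlings was labelled with 1 dye and hybridised to 8 Agilent arrays. Per the file headers, the deposited scanner files hold spot intensities read by version 10.7.1.1 of Agilent Feature Extraction, whose processed signal is already background-subtracted and detrended. The deposited value table holds log2 values that correlate at 0.9999 or above with the scanner values centred per probe within each slide, so it was used as an alternative only. Its column medians ran from -0.061 to 0.113, and no step beyond these is given in the sources used here.

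From the processed signal, log2 minus each array's 75th percentile was computed for 43603 probes, after leaving out 4 to 23 flagged spots per array (no spot was saturated). The transcript accession of each probe was matched to the gene table (assembly TAIR10.1), which named 34358 probes and left 9245 unnamed. The brightest probe stood for the 6940 genes with several. The headers name another build, so no coordinates are given.

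Slide averages were compared with limma 3.58.1 (lmFit and eBayes, R 4.3.3), with Benjamini-Hochberg adjustment over 19225 genes and a threshold of 0.05. The fit was tested on simulated slide averages with independent noise, for probes well above background on all 8 arrays. That simulation held neither the wild-type pairs by position nor dim genes, so it cannot show how the fit handles them. Nothing in the labels says that the samples came from separate cultures beyond the design's mention of biological replicates, so p-values may measure technical spread. All members are named. All 8 arrays are printed for members past the threshold under both averagings, for the 2 smallest p per subgroup among those past it, and for those that fell. For each list of other genes up to 4 with the smallest p are named. The members, lists and tests were chosen with earlier results of these data known. Both lines lay on each slide, and the slide averages of the lines deviated together (r = 0.78 over genes), so slide was tried as a block. Arrays with the same replicate number also deviated together (r = 0.28, 0.34, 0.31 and 0.38). Alternatives covered averaging by position, blocks, scaling, background correction, filters, probe choice, the deposited table, left-out arrays and either wild-type pair. The number of arrays and the signal over background limit the precision.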

Additional observations from a re-analysis of the deposited data

Results flagged for a closer look

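Among the 106 sets of 4 arrays formed by the 53 tested members and both lines, 4 held an array far from the other 3, and chance flags about 1 set in 20. WRKY23 on tt8-3 replicate 3 was at -2.21, above the other tt8-3 arrays. WRKY30 on tt8-3 replicate 4 was at -4.03, below the other tt8-3 arrays. WRKY56 on wild-type replicate 4 was at -3.39, while the other wild-type arrays were at -5.56, -5.29 and -5.47. WRKY57 on wild-type replicate 2 was at -3.89, and this gene keeps a positive change in all 12 fits that leave out an array or slide average, from 0.73 to 0.93.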

How the results depend on the processing

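The median change of the family and of groups I, II and III was positive under every alternative run. The count of members that rose (20) became 1 with arrays averaged by position, 3 with position as a block, 11 with normexp, 13 without the filter on dim probes, 33 in the deposited table and 12 against wild-type replicates 2 and 4 alone. The count that fell (2) became 0, 0, 1, 0, 7 and 7 in the same order, 5 with slide as the replicate block and 1 with the median over probes. Slide as a block ended none of the 22 calls and added 13. With only genes well above background on all 8 arrays, 17 of 46 members rose and 3 fell, beside 2623 and 2117 of 18275 genes. The replicate number as a block on the 8 single arrays ended 7 calls and added 4. With normexp the family's median was 0.11 and that of group III 0.16, below the 0.30 of group I. Over 16 fits leaving out an array or an average, 0 to 21 members rose and 0 to 3 fell, and the medians ran from 0.17 to 0.41 for the family, 0.24 to 0.55 for group I, 0.060 to 0.29 for group II and 0.24 to 0.93 for group III. Without wild-type replicate 1, 6 of 53 members rose, beside 1758 of 19225 genes. Without wild-type replicate 3, 10 members rose, beside 1592 genes. With the wild-type first position left out, the family's median change was 0.17, and with the second left out it was 0.41. WRKY71 was the 1 called member that changed sign: to -0.18 with normexp, to -0.15 and -0.12 without wild-type replicate 1 or 3, and to -0.65 against wild-type replicates 2 and 4 (adjusted p = 0.014) or without the first wild-type position (adjusted p = 0.079). Without the second wild-type position its change was 1.41. The cause was not tested. Over all genes, 3025 rose and 2112 fell, with 524 and 73 for averages by position, 6495 and 5919 when slide was a block, 1884 and 1549 with normexp, 7185 and 6704 in the deposited table, 1573 and 825 without the filter, and 2153 and 2597 with median scaling, which moved the share of higher calls, where 15 members rose and 3 fell. Of the 22 calls, 5 ended with median scaling and 6 with quantile normalization, and no called member changed sign under either. Dim members limit the comparison: WRKY38 and WRKY54 were bounds in wild type, and both lost the call with normexp.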
